A study of Mus musculus with 8 samples.

Results

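Macrophages made up 289 of the 8994 barcodes that passed limits on detected genes, mitochondrial transcripts and total unique molecular identifiers (UMIs, 1 per captured RNA molecule) in single-cell RNA libraries of mouse pancreatic islets. They were chosen by rule: a barcode needed at least 1000 UMIs, less than 5% of them from the hormone genes *Ins1*, *Ins2*, *Gcg* and *Sst*, and at least 1 UMI of 4 or more of the 7 macrophage genes *Tyrobp*, *Fcer1g*, *Laptm5*, *Ctss*, *C1qa*, *C1qb* and *C1qc*. Islets of 10 male C57BL6/J mice, 12 to 16 weeks old, were pooled per replicate and divided over 4 cultures. The intact islets were left untreated, or received 10 U/mL human recombinant IL-1β with 150 U/mL mouse IFN-γ (called cytokines here), the same cytokines with 2 mM NMMA, an inhibitor of nitric oxide synthases, or 2 mM NMMA alone, all for 18 h. There were 2 replicates of each condition, hence 8 libraries. Macrophages saw the cytokines inside whole islets, next to endocrine cells exposed to the same cytokines, so a direct response and a response to neighbouring cells cannot be told apart.

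Islet macrophages are tissue-resident phagocytes that lie along the islet vessels, sample the contents of β-cells and present antigen to T cells. IFN-γ binds a surface receptor that signals through the kinases JAK1 and JAK2 to genes with GAS elements, *Irf1* among them, and IRF1 and related factors then bind ISRE elements. IL-1β signals through MyD88 to NF-κB, and both pathways drive *Nos2*, the inducible nitric oxide synthase (iNOS). A classically activated macrophage displays more antigen on MHC molecules, releases chemokines that attract T cells, and makes guanylate binding proteins (GBPs) and immunity-related GTPases (IRGs) that attack membranes around intracellular microbes.

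Replicate 1 held 34 untreated macrophages, 30 treated with cytokines, 27 given NMMA besides and 28 given NMMA alone, and replicate 2 held 59, 33, 40 and 38. Their shares of the barcodes were 1.61, 2.32, 3.01 and 2.87% in replicate 1 and 5.27, 4.30, 5.17 and 3.58% in replicate 2, with exact Clopper-Pearson 95% intervals between 1.12 and 6.97% over all libraries. In each condition the share was higher in replicate 2 than in replicate 1, and cytokines went with a higher share in replicate 1 and a lower share in replicate 2. The median member held 11584 UMIs (range 1025 to 43282), and the library medians lay between 8379 and 16839, with summed UMIs per library of 311979 to 634936. All 7 marker genes were found in 251 members (86.9%), 6 in 22, 5 in 10 and 4 in 6. Among the barcodes with less than 5% hormone UMIs that were not chosen, 6 had 3 of the markers, 23 had 2, 139 had 1 and 757 had none, so few barcodes lay near the limit. A further 9 barcodes had at least 4 of the markers and 5.98 to 39.0% hormone UMIs and were left out, while the member nearest to that limit had 4.15%.

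The label was also checked with genes that the rule did not use. *Csf1r*, the receptor for the survival factor of macrophages, stood between 303 and 412 CPM in the 8 libraries, and at most at 0.109 CPM in β-led barcodes (6412 barcodes with at least 10% insulin UMIs) and 4.90 CPM in endothelial barcodes. Levels are given as CPM, UMIs of a gene per 1000000 UMIs summed over the members of a library and scaled by TMM, always for replicate 1 and then replicate 2. *Cd68*, a lysosomal glycoprotein of phagocytes, was at 852 to 1410.5 CPM, *Adgre1*, which encodes F4/80, at 139 to 298 CPM, and *Spi1*, the lineage factor PU.1, at 275 to 492 CPM. Of the 22 identity genes *Cx3cr1* was the 1 with a library at 0. Markers of other cells were present at different levels. The 10 endocrine genes, in which hormones are included, had UMIs of 2 or more genes in all 289 members and summed to 6156 and 7164 CPM untreated, 2445 and 4259 with cytokines, 4421 and 3735 with cytokines and NMMA, and 4922 and 7758 with NMMA alone, so they were lower in each library with cytokines than in any library without them. Of 11 genes of T and NK cells 9 had no UMI in any member, *Chil3* of monocytes and *S100a9*, *Retnlg*, *Cxcr2* and *Mmp9* of neutrophils had none, and *Zbtb46*, *Xcr1* and *Cd209a* of dendritic cells had none. The 9 dendritic-cell genes summed to 1.59 to 6.01 CPM untreated, 0 to 15.1 with cytokines, 48.1 to 82.2 with cytokines and NMMA and 14.5 to 34.4 with NMMA. The 8 mesenchymal genes summed to 107 and 349 CPM in the libraries with cytokines and NMMA and at most 7.24 elsewhere, and B-cell genes reached 493 CPM in replicate 1 of NMMA alone and at most 12.02 elsewhere. The 7 endothelial genes summed to 309.7 CPM in replicate 1 with cytokines and NMMA and at most 33.1 elsewhere. Endocrine genes aside, 34 members had UMIs of 2 or more markers of another type, most often acinar (15 members) or ductal cells (12). Insulin transcripts were present too, at 0.476 to 1.86% of the CPM in β-led barcodes, and whether they came from free RNA was not tested. The part of these markers in the results below was not tested, except that calls were also counted without the 34 members.

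The comparison of cytokines with untreated islets asks what IL-1β and IFN-γ do to islet macrophages. Of 5178 genes tested, 225 differed (4.35%), 181 higher (3.5%) and 44 lower (0.85%) with cytokines, at an adjusted p under 0.05 (edgeR quasi-likelihood test on UMIs summed per library, Benjamini-Hochberg adjustment over all genes tested). Interferon-induced GTPases, antigen processing genes, *Socs1*, *Irf1*, *Cd274*, *Acod1*, *Il1rn* and the chemokine gene *Cxcl9* rose, and *Tmem119*, *Lpl* and *Cd81* fell. Some genes with few UMIs untreated passed the filter for low counts through other libraries, so their calls were largely set in advance. Among these were *Cxcl9*, *Socs1*, *Acod1*, *Ciita*, *Ccl2*, *Ccl12* and most of the GTPases. With the replicate as a block, as the split pools allow, 288 genes were higher and 124 lower (7.96% in all). Without untreated replicate 1 or 2 the number called was 102 or 116, so the count depends on both untreated libraries. The median log2 difference over all genes was -0.01, and -0.13 with scaling by total UMIs. Replicate 1 and 2 are separate pools of islets, and in summed members fewer expressing cells and less RNA per cell cannot be told apart.

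**Figure D1:**
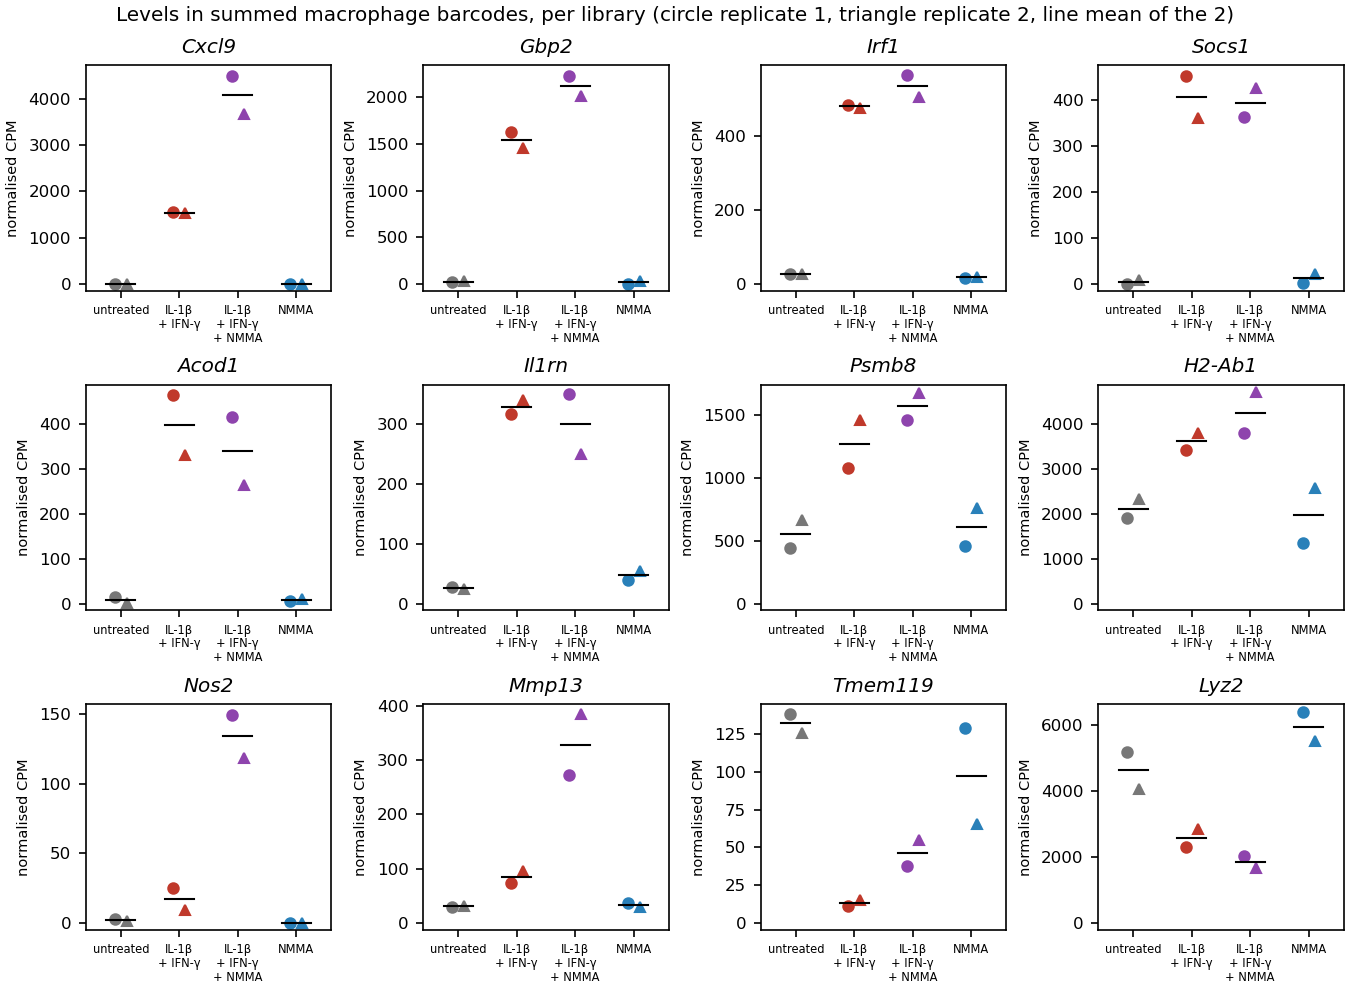
Levels of 12 genes in macrophages of each of the 8 libraries, in normalised CPM (y axis, linear from 0) by condition (x axis), with circles for replicate 1, triangles for replicate 2 and a line at their mean. *Cxcl9*, *Gbp2*, *Irf1*, *Socs1*, *Acod1* and *Il1rn* are low without cytokines and high with them, *Nos2* and *Mmp13* are highest with cytokines and NMMA, and *Tmem119* and *Lyz2* are lower in all 4 cytokine libraries than in any untreated library.

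Genes of IFN-γ signalling rose with cytokines. *Irf1*, a transcription factor induced by IFN-γ, stood at 27.1 and 27.04 CPM untreated, 483 and 477 with cytokines, 563 and 506 with cytokines and NMMA, and 17.2 and 18.1 with NMMA alone. The 4 cytokine libraries lay far above the other 4, and the log2 difference from untreated was 4.13 ± 0.29 (SE; adjusted p = 4.63e-07, edgeR), a 17.6-fold rise. *Irf8*, a lineage factor of macrophages and dendritic cells, rose 2.93-fold from a high untreated level (379 and 280.0 CPM, against 1162 and 757 with cytokines; adjusted p = 0.0066), a call made in 6 of the 8 fits that each left out 1 library. *Batf2*, a partner of IRF1 in activated macrophages, rose 14.1-fold (adjusted p = 2.10e-04).

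Feedback inhibitors of the JAK kinases rose with them. *Socs1*, which binds and inhibits JAKs, was at 0 and 9.54 CPM untreated, 453 and 362 with cytokines, 363 and 426 with cytokines and NMMA, and 2.87 and 21.7 with NMMA alone, so it was near 0 without cytokines and between 362 and 453 CPM in all 4 cytokine libraries, with a log2 difference of 6.01 ± 0.65 (adjusted p = 6.02e-04). *Socs3* rose 11.3-fold (adjusted p = 1.25e-05). Of the 25 genes listed for IL-1 and IFN-γ receptors and signalling 19 were tested and 8 were higher, none lower, with a median log2 difference of 1.13 against -0.01 over all genes. Of 17 tested subunits and feedback genes of NF-κB 4 were higher, namely *Sod2*, the mitochondrial superoxide dismutase (4.39-fold, adjusted p = 3.85e-04), *Icam1*, an adhesion molecule (5.13-fold, adjusted p = 0.0223), *Birc3*, an inhibitor of cell death (6.47-fold, adjusted p = 0.034), and *Nfkbib* (2.45-fold, adjusted p = 0.0295). *Nfkbia*, the classic NF-κB inhibitor, did not pass (log2 difference 0.77 ± 0.30, adjusted p = 0.225).

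The GBP and IRG GTPases were low without cytokines and high with them. Of 22 listed genes 16 passed the low-count filter, and all 16 were higher with cytokines, with a median log2 difference of 4.85. Of these 16, 12 had at most 10 UMIs in each untreated library, so they passed the filter through the treated libraries and had to differ. *Gbp2* was at 18.0 and 28.6 CPM untreated, 1622 and 1457 with cytokines, 2229 and 2007 with cytokines and NMMA, and 0 and 32.6 with NMMA alone, with a log2 difference of 5.97 ± 0.81 (adjusted p = 0.0131). Its libraries did not overlap between conditions with and without cytokines, yet the call was kept in only 2 of the 8 fits that left out 1 library (adjusted p up to 0.151). *Gbp5*, which promotes inflammasome assembly, was at 0 and 1.59 CPM untreated, 109 and 202 with cytokines, 243 and 237 with cytokines and NMMA, and 5.73 and 0 with NMMA alone (log2 difference 6.85 ± 0.66, adjusted p = 1.12e-05). *Igtp*, also called Irgm3, was at 9.02 and 27.04 CPM untreated, 337 and 277 with cytokines, 497 and 367 with cytokines and NMMA, and 11.5 and 14.5 with NMMA alone (log2 difference 3.94 ± 0.38, adjusted p = 9.13e-06). *Iigp1* had no UMI in either untreated library and stood at 907 and 748 CPM with cytokines and 777 and 1289.5 CPM with cytokines and NMMA, at least 266-fold higher with cytokines than the floor of 3 UMIs over the untreated group. *Gbp3*, *Gbp4* and *Gbp7* rose 17.4-, 74.5- and 18.6-fold. The GBP and IRG families hold near-identical copies, so reads may be split among members.

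Because these genes moved together, their promoters were read from RefSeq (GRCm38.p6, 250 bases before to 50 after the start) and searched on both strands for the GAS element TTCNNNGAA, the ISRE core (GAAA, any 2 bases, GAAA) and the κB motif. A gene with more than 1 window counted as holding a motif if any of its windows did. Of 141 genes called higher that have a promoter in the table, 17.0% held a GAS match, 19.9% an ISRE core and 11.3% a κB match, against 8.05, 5.11 and 6.51% of 4147 tested genes and 9.55, 3.99 and 5.14% of all 27025 promoters. Among 29 genes called lower the shares were 6.90, 6.90 and 3.45%. Of the called GTPases, 9 have a promoter in the table, and 8 of them held an ISRE core and 5 a GAS match. The windows of *Irf1*, *Gbp2*, *Gbp5*, *Igtp* and *Socs1* are shown because these called genes, a factor, GTPases and a feedback inhibitor, hold matches, with the matches in capitals and positions counted from the start, which is followed downstream by base +1.
*Irf1*, chr11:53769764-53770063, plus strand: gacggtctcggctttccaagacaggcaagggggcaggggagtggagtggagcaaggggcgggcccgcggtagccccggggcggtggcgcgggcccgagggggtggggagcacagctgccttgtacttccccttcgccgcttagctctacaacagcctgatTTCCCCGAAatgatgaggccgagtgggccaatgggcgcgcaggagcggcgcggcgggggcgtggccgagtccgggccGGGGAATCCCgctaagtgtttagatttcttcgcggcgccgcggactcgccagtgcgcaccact
*Gbp2*, chr3:142620413-142620712, plus strand: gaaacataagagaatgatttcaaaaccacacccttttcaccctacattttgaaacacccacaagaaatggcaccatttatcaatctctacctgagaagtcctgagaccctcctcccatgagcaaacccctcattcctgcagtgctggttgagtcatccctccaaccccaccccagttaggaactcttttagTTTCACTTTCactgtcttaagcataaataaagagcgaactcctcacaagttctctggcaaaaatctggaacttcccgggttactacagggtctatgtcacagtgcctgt
*Gbp5*, chr3:142496684-142496983, plus strand: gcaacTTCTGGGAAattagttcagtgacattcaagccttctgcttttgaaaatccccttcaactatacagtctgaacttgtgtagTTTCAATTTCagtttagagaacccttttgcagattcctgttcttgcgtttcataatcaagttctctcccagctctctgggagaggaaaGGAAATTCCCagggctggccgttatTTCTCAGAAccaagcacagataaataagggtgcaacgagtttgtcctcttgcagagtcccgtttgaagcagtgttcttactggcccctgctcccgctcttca
*Igtp*, chr11:58199306-58199605, plus strand: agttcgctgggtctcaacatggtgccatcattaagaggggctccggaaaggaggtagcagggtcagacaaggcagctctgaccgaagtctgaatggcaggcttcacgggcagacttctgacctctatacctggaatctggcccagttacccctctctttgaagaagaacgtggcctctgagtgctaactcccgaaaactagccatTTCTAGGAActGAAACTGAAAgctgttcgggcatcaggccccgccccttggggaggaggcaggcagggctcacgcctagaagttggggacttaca
*Socs1*, chr16:10785487-10785786, minus strand: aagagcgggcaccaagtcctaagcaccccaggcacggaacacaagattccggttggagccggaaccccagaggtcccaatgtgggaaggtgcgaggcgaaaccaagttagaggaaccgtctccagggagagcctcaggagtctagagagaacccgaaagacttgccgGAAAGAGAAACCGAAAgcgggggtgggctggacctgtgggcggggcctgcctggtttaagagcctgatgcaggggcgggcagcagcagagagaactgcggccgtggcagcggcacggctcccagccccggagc
The *Irf1* window shown held GAS at -90 and κB at -13, *Gbp2* an ISRE core at -59, *Igtp* GAS at -45 and an ISRE core at -34, and *Socs1* overlapping ISRE cores at -83 and -77. A second *Irf1* window, chr11:53770223-53770522, held none of the 3 motifs. *Gbp5* held GAS at -245 and -52, an ISRE core at -165 and κB at -77. The windows of *Cxcl9*, *Acod1* and *Cd274* held none of the 3 motifs. A match describes the letters only.

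Genes of MHC class I presentation rose at several of its steps. Of 20 listed genes, all tested, 12 were higher and none lower (median log2 difference 1.42). Among the proteasome genes, *Psmb8*, an immunoproteasome subunit, stood at 442 and 669.7 CPM untreated, 1082 and 1459.7 with cytokines, 1463 and 1682 with cytokines and NMMA, and 462 and 763 with NMMA alone (log2 difference 1.19 ± 0.30, adjusted p = 0.0352), and the activator subunits *Psme1* and *Psme2* rose 3.23- and 3.24-fold. *Tap1*, a subunit of the peptide pump into the endoplasmic reticulum, and *Tapbp*, which holds it to class I molecules, rose 5.02-fold (adjusted p = 7.21e-04) and 2.97-fold (adjusted p = 0.00193). Among class I molecules, the non-classical *H2-T23* rose 4.54-fold (adjusted p = 1.15e-04), whereas the light chain *B2m* (4668 and 7261 CPM untreated, 7934 and 10652 with cytokines; log2 difference 0.64 ± 0.28, adjusted p = 0.307) did not pass. The call for *Psmb8* was made in 5 of the 8 fits without 1 library (adjusted p up to 0.37).

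MHC class II showed another split. *Ciita*, the transactivator of class II genes, rose 16.8-fold from 3.01 and 3.18 CPM to 57.0 and 57.3 CPM (adjusted p = 3.25e-04). Its few untreated UMIs mean that it passed the low-count filter through other libraries. *H2-DMa* and *H2-DMb1*, which load peptides onto class II molecules, rose 5.68- and 3.72-fold (adjusted p = 6.18e-05 and 0.00175). *H2-Ab1*, a class II chain that binds peptide, was at 1899.6 and 2318 CPM untreated, 3422 and 3782 with cytokines, 3791 and 4696 with cytokines and NMMA, and 1347 and 2576 with NMMA alone. Both cytokine libraries lay above both untreated ones, but the log2 difference of 0.77 ± 0.30 did not pass (adjusted p = 0.211), except with the replicate block (adjusted p = 0.0367). *Cd74*, the invariant chain that escorts class II molecules, was high throughout, at 5579 and 6956 CPM untreated, 7939 and 7727 with cytokines, 9078 and 9295 with cytokines and NMMA, and 4461 and 8025 with NMMA alone, and did not pass (log2 difference 0.32 ± 0.28, adjusted p = 0.692). In all 3 of 7 tested class II genes were higher, and 6 with the block.

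Inhibitory and stimulatory ligands of T cells both rose. *Cd274*, which encodes the inhibitory ligand PD-L1, stood at 30.1 and 41.4 CPM untreated, 583 and 558 with cytokines, 542 and 493 with cytokines and NMMA, and 37.3 and 83.2 with NMMA alone. It rose in both replicates, with a log2 difference of 3.96 ± 0.35 (adjusted p = 4.71e-06) that held in all 8 fits without 1 library. *Cd40*, the receptor through which T cells activate macrophages, rose 7.57-fold (adjusted p = 7.48e-04) and *Cd86*, a stimulatory ligand of CD28, 3.36-fold (adjusted p = 0.00133). These 3 of 8 tested genes were called.

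Of the chemokines that draw CXCR3-bearing T cells, *Cxcl9* had no UMI in any macrophage without cytokines. It stood at 1554 and 1532 CPM with cytokines and 4501 and 3682 CPM with cytokines and NMMA, at least 496-fold higher with cytokines than the floor of 3 UMIs over the untreated group. *Cxcl10* was at 6.01 and 74.8 CPM untreated, 1479 and 1077 with cytokines, 2058 and 1249 with cytokines and NMMA, and 8.60 and 0 with NMMA alone. Its cytokine libraries did not overlap the untreated ones, but the untreated pair lay far apart and the log2 difference of 4.84 ± 1.01 did not pass (adjusted p = 0.0922, edgeR; DESeq2 adjusted p = 0.00246). Of 14 tested other chemokines 2 were higher. *Ccl2*, which attracts monocytes, was at 6.01 and 6.36 CPM untreated, 103 and 118 with cytokines, 309.7 and 194 with cytokines and NMMA, and 2.87 and 3.62 with NMMA alone, a 16.8-fold rise (adjusted p = 2.92e-05). *Ccl12*, a related ligand of CCR2, rose from 9.02 and 0 to 95.7 and 139 CPM (adjusted p = 3.85e-04). *Ccl5* was abundant without any cytokine, at 4400.3 and 5430.5 CPM untreated, 4336 and 8098 with cytokines, 8269 and 8647 with cytokines and NMMA, and 3452 and 5069 with NMMA alone, and did not pass (adjusted p = 0.706).

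Among secreted cytokines, antagonists of IL-1 and IL-18 rose. *Il1rn*, the IL-1 receptor antagonist, was at 27.1 and 23.9 CPM untreated, 317 and 341 with cytokines, 349.8 and 250.2 with cytokines and NMMA, and 40.1 and 54.3 with NMMA alone, a log2 difference of 3.69 ± 0.32 (adjusted p = 3.98e-06) seen in all 8 fits without 1 library. *Il18bp*, which neutralises IL-18, rose 2.85-fold (adjusted p = 0.00483). *Tnf* was at 30.1 and 23.9 CPM untreated, 57.0 and 99.5 with cytokines, 74.8 and 74.9 with cytokines and NMMA, and 37.3 and 14.5 with NMMA alone, a rise of 2.90-fold (adjusted p = 0.0444) that DESeq2 did not call (adjusted p = 0.292). *Il1b* was at 15.03 and 46.1 CPM untreated, 93.4 and 51.3 with cytokines, 483 and 98.6 with cytokines and NMMA, and 20.1 and 61.5 with NMMA alone, its replicates lay far apart, and it did not pass (adjusted p = 0.779). In 1 of the cytokine libraries 76.5% of its UMIs came from 1 barcode. *Il6* was listed in few members, at 0 and 9.05 CPM with cytokines and 158 and 31.1 CPM with cytokines and NMMA, and in 1 library with NMMA added 86.4% of the UMIs came from 1 barcode. These 3 called genes were of 11 tested and 27 listed, and 16 had too few UMIs.

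Enzymes and surface proteins of activated macrophages rose in part. *Acod1*, which makes itaconate in mitochondria, was at 15.03 and 1.59 CPM untreated, 465 and 332 with cytokines, 417 and 265 with cytokines and NMMA, and 5.73 and 10.9 with NMMA alone (log2 difference 5.86 ± 0.56, adjusted p = 4.62e-05). Its libraries separated cleanly by cytokines, although 1 barcode held 53.6% of the UMIs in 1 library. *Slamf8* rose 35.2-fold and *Il4ra*, the IL-4 receptor chain, 2.97-fold. *Fcgr1*, the high-affinity IgG receptor, rose from 231 and 253 to 649 and 573 CPM (adjusted p = 0.0201) and *Fcgr3* 2.77-fold (adjusted p = 0.00249). These were the 2 of 22 macrophage identity genes called higher, and none was lower. In the list of 8 tested nitric oxide and arginine genes only *Ass1*, which regenerates arginine from citrulline, rose (5.76-fold, adjusted p = 0.0433), a call made in 4 of the 8 fits without 1 library (adjusted p up to 0.277). *Gch1*, which makes the iNOS cofactor tetrahydrobiopterin, did not pass (log2 difference -0.02 ± 0.32).

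Antiviral interferon-stimulated genes split by the fit. Of 28 tested, 9 were higher and 18 with the replicate block, at a median log2 difference of 1.54. *Samhd1*, a nucleotide hydrolase that restricts viruses, rose 8.99-fold (adjusted p = 6.54e-06), *Ifit2*, which binds viral RNA, 10.5-fold (adjusted p = 3.85e-04), *Oasl1* 5.28-fold (adjusted p = 4.79e-04) and *Zbp1*, a sensor of Z-form nucleic acid, 5.25-fold (adjusted p = 0.00341). *Irf7* was at 105 and 245 CPM untreated, 481 and 479.5 with cytokines, 376 and 555 with cytokines and NMMA, and 88.9 and 209.9 with NMMA alone. Its untreated replicates differed in the same direction as those with NMMA, and it passed only with the block (adjusted p = 5.62e-04, against 0.14). *Bst2*, or tetherin, behaved alike (adjusted p = 0.0345 with the block, 0.253 without).

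Metabolic, stress and death genes were called in small numbers, to be read against 3.5% of all genes called higher. Of 17 tested glycolysis genes *Hk2* and *Hk3*, both hexokinases, rose 2.46- and 3.81-fold. *Prdx1*, a peroxide-reducing Nrf2 target, was at 7640.4 and 4019.6 CPM untreated, 16696 and 14030.4 with cytokines, 10666 and 8015 with cytokines and NMMA, and 5739 and 5977 with NMMA alone and rose 2.64-fold (adjusted p = 0.0122), and *Slc7a11*, the cystine importer, rose 3.39-fold (adjusted p = 0.0496, with a call in 3 of 8 fits without 1 library). *Hmox1*, the haem-degrading Nrf2 target, was at 2423 and 981 CPM untreated, 1800.1 and 2292 with cytokines, 2523 and 670.3 with cytokines and NMMA, and 1634 and 1820.0 with NMMA alone, so its replicates differed more than its conditions (adjusted p = 0.936). None of the 11 tested heat shock genes and none of 9 genes of the integrated and endoplasmic reticulum stress responses was called (with the block 1 of the latter was). *Ddit3*, or CHOP, was at 42.1 and 103 CPM untreated, 98.0 and 90.5 with cytokines, 61.4 and 76.7 with cytokines and NMMA, and 45.9 and 72.4 with NMMA alone (adjusted p = 0.808). *Casp4*, which encodes caspase-11, and *Mlkl*, the executor of necroptosis, rose 5.11- and 9.21-fold (adjusted p = 0.00101 and 0.00193), 2 of 15 tested cell death genes. Of the lysosomal genes 2 of 22 were higher, the protease *Ctsc* (2.20-fold) and the protease inhibitor *Cst7* (3.73-fold). In the immediate early list 1 of 11 genes was higher, *Klf6* (2.06-fold). No complement gene of 10 passed, and the 3 C1q genes among them were used to choose the barcodes. Of 17 cell cycle genes 13 had too few UMIs to test and none of the other 4 passed.

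**Figure D2:**
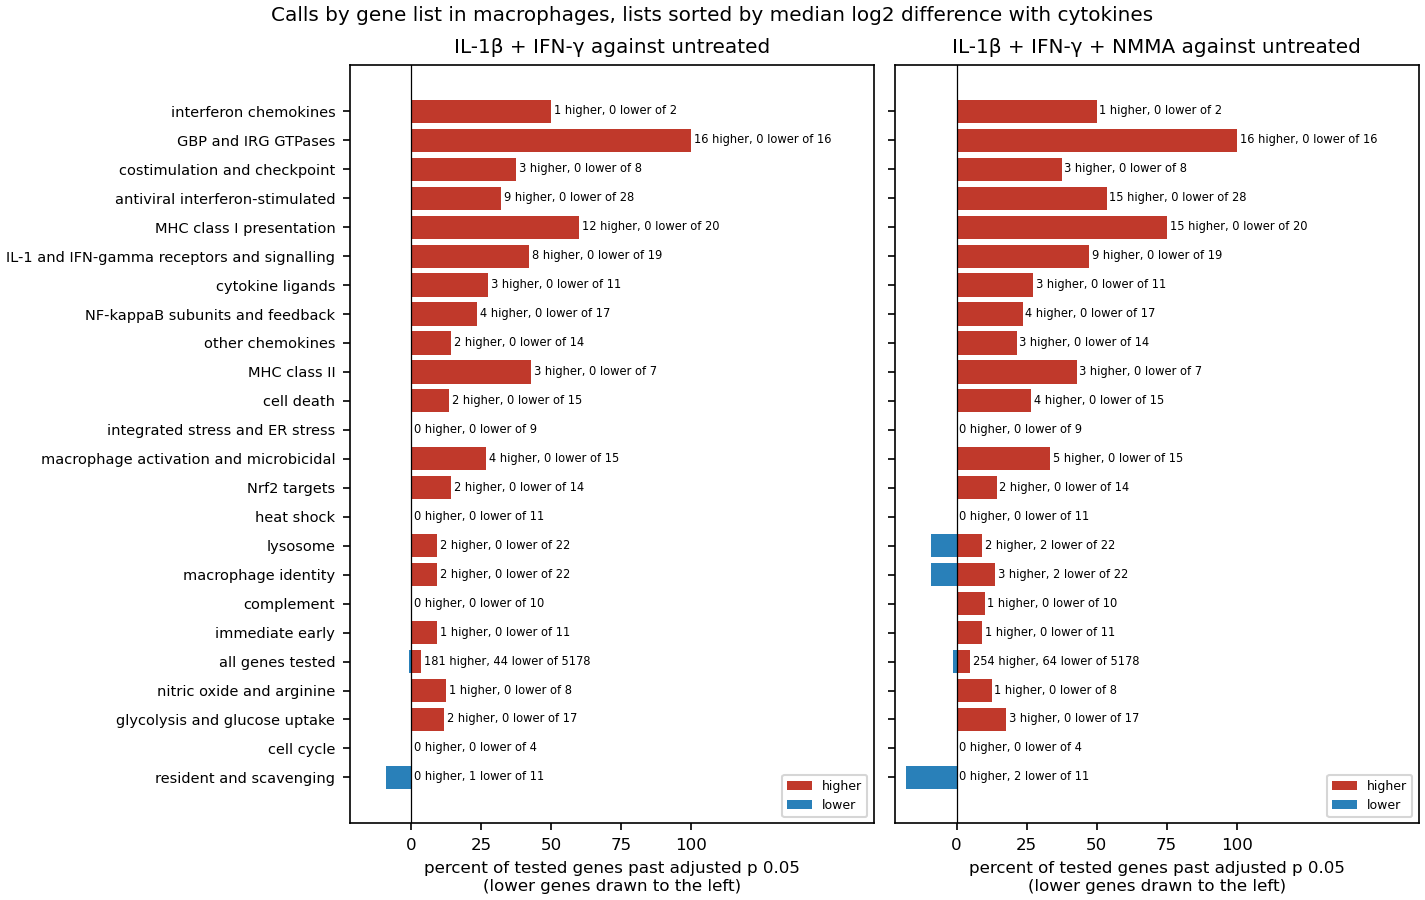
Percent of tested genes called higher (red, to the right of 0) or lower (blue, to the left) in 23 gene lists and over all genes, for cytokines (left panel) and cytokines with NMMA (right panel) against untreated macrophages. The GBP and IRG GTPases stand at 16 of 16 in both panels, MHC class I presentation at 12 and 15 of 20, and the resident and scavenging genes are the list with lower and no higher genes in both. Of the 16 GTPases, 12 passed the low-count filter through the treated libraries, so their calls were largely set in advance.

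Among the 44 genes lower with cytokines, *Tmem119*, known from microglia, was at 138 and 126 CPM untreated, 11.4 and 15.1 with cytokines, 37.4 and 54.8 with cytokines and NMMA, and 129 and 65.1 with NMMA alone, so the cytokine libraries were lowest and those with NMMA added lay between them and the untreated ones. The log2 difference was -3.30 ± 0.43 (9.88-fold lower, adjusted p = 2.23e-04) and was called in all 8 fits without 1 library. *Lpl*, the lipoprotein lipase of islet macrophages, was at 1713 and 1045 CPM untreated, 169 and 274 with cytokines, 256 and 203 with cytokines and NMMA, and 1367 and 796 with NMMA alone, 6.24-fold lower with cytokines (adjusted p = 3.85e-04). *Cd81*, a tetraspanin, was 2.41-fold lower (adjusted p = 0.0197), the 1 call among 11 tested resident and scavenging genes, of which 4 were lower with the block. The list's median log2 difference was -0.83, and 13 of its 24 genes had too few UMIs. *Cx3cr1*, the fractalkine receptor of resident macrophages, is named after its values were seen. It stood at 225 and 140.0 CPM untreated, 2.28 and 21.1 with cytokines, 0 and 11.0 with cytokines and NMMA, and 439 and 159 with NMMA alone, so that every cytokine library lay below every other library, but the log2 difference of -4.05 ± 1.06 did not pass (adjusted p = 0.152, and 0.0736 with the block). *Lyz2*, lysozyme, was at 5206 and 4059 CPM untreated, 2317 and 2844 with cytokines, 2032 and 1675 with cytokines and NMMA, and 6404 and 5521 with NMMA alone and passed with the block only (adjusted p = 0.0248, against 0.081). Other genes among the 10 largest decreases were *Susd3*, *Cyp4f18*, *Gadd45a*, *Slco2b1*, *Tle1*, *Tmem37* and *Cd72*, between 3.42- and 8.17-fold lower. *Pyy*, a hormone gene of endocrine cells that was higher in β-led barcodes than in macrophages, was also 7.46-fold lower, and free RNA at the insulin ratio would give 14.3 and 29.8 CPM untreated against 72.1 and 105 measured. The β-led barcodes held under 5% *Gcg* and *Sst* UMIs, so this estimate leaves out free RNA of other endocrine cells.

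The comparison of cytokines with and without NMMA asks how inhibition of nitric oxide synthases bears on the response. The median mitochondrial share of member UMIs moved with it, at 1.34 and 0.693% untreated, 1.86 and 1.11% with cytokines, 0.996 and 0.537% with cytokines and NMMA and 1.82 and 1.34% with NMMA alone, and its part in the results was not tested. Of 5178 genes none was higher and 11 were lower with cytokines than with cytokines and NMMA (0.212%), and 320 had an unadjusted p under 0.05 (edgeR). With the replicate block 9 were higher and 57 lower (1.27% in all), and DESeq2 called 0 and 8. Of the genes in the function lists *Nos2* and *Cxcl9* were called, both lower without NMMA. The block called 11 further genes of these lists, 7 lower and 4 higher without NMMA. The 4 were *Atf4*, a factor of the integrated stress response (166 and 190.0 CPM with cytokines, 69.4 and 96.8 with NMMA added, adjusted p = 0.0193 with the block and 0.191 without), the heat shock genes *Hspe1* (383 and 250.3 CPM against 101.5 and 177, adjusted p = 0.0494 and 0.191) and *Hspb1* (107 and 0 CPM against 0 and 0, adjusted p = 0.00709 and 0.942), and the lysosomal *Lipa*. The 7 included the glycolysis genes *Pfkp*, *Tpi1* and *Slc16a3*, besides *Ccl2*, *Ido1*, *Tnfsf13b* and *Traf1*. These genes were chosen after their values were seen. *Nos2* was at 3.01 and 1.59 CPM untreated, 25.1 and 9.05 with cytokines, 149.5 and 119 with cytokines and NMMA, and 0 and 0 with NMMA alone. The libraries with cytokines and NMMA lay above all others, and the log2 difference of -2.87 ± 0.42 (7.33-fold lower without NMMA, adjusted p = 0.0133) was called in all 8 fits without 1 library, though not by DESeq2 (adjusted p = 0.0715). Against untreated, *Nos2* did not pass with cytokines alone (adjusted p = 0.0598, and 0.0345 with the block) and rose 55.8-fold with cytokines and NMMA (adjusted p = 2.04e-05). It was low in all other libraries, so it passed the low-count filter through the libraries with cytokines and NMMA. Its calls against those libraries, also in the fits without 1 library, were therefore largely set in advance. Free RNA from β-led barcodes, where *Nos2* averaged 180 CPM with cytokines and 445 with NMMA added, would give 0.931 and 1.35 CPM with cytokines and 4.52 and 3.99 CPM with NMMA added.

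*Mmp13*, a collagenase, was at 30.1 and 31.8 CPM untreated, 72.9 and 96.5 with cytokines, 272 and 385 with cytokines and NMMA, and 37.3 and 28.9 with NMMA alone, so it stood higher in both cytokine conditions and highest with NMMA. It was 3.92-fold lower without NMMA (log2 difference -1.97 ± 0.28, adjusted p = 0.00889), in 7 of 8 fits without 1 library, and 1 barcode held 40.2% of its UMIs in 1 library. *Cxcl9* was lower without NMMA by a log2 difference of -1.41 ± 0.26 (adjusted p = 0.0479), a call made in 3 of the 8 fits (adjusted p up to 0.271). *Mgarp*, a mitochondrial protein, was at 48.1 and 42.9 CPM untreated, 15.95 and 0 with cytokines, 112 and 65.8 with cytokines and NMMA, and 37.3 and 39.8 with NMMA alone and called in 2 of the 8 fits. Several of the 11 calls rested on few barcodes. All UMIs of *Mgp*, a matrix protein of mesenchymal cells, in the libraries with cytokines and NMMA came from 1 barcode in each, 42 of 42 and 70 of 70, 1 barcode held 94.1% and all of the UMIs of the mesenchymal marker *Sparc* there (named after its values were seen), and 1 barcode held 92.5 and 89.2% of the *Apol7c* UMIs. Without genes that had over 50% of a library's UMIs in 1 barcode 6 calls were left, a count chosen after the data were seen, and without the 34 members with markers of another type 5 were.

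With nitric oxide synthases inhibited, genes of the same lists stood above untreated. With cytokines and NMMA 318 genes differed (6.14%), 254 higher (4.91%) and 64 lower (1.24%) than untreated, and with the block 389 and 169 (10.8% in all). This comparison uses the same untreated libraries as the first, so the 2 sets of values stand side by side and are not independent. The 16 tested GTPases were higher here too (median log2 difference 5.04), as were 15 of 20 class I genes and 15 of 28 antiviral genes. Of the 16 GTPases, 12 had passed the low-count filter through the treated libraries, so their calls were largely set in advance here as well. *Irf1* was 19.5-fold, *Socs1* 62.4-fold, *Cd274* 14.1-fold and *Il1rn* 11.8-fold above untreated with NMMA present, against 17.6-, 64.6-, 15.5- and 12.9-fold without it. Some genes besides *Nos2* passed in this comparison and not in the first, and for the 4 named next the difference between cytokines with and without NMMA did not pass. *C3*, the central complement component, was at 6.01 and 35.0 CPM untreated, 128 and 235 with cytokines, 323 and 237 with cytokines and NMMA, and 14.3 and 47.0 with NMMA alone (adjusted p = 0.0189 with NMMA, 0.0597 without). *Pfkp*, a phosphofructokinase, was at 60.1 and 30.2 CPM untreated, 95.7 and 90.5 with cytokines, 302 and 179 with cytokines and NMMA, and 48.7 and 76.0 with NMMA alone, and the difference between the cytokine conditions passed with the block only (adjusted p = 0.0142, against 0.171). *Traf1*, an NF-κB target, and *Ripk3*, the kinase upstream of MLKL, were 16.3- and 4.52-fold higher with NMMA (adjusted p = 5.61e-04 and 0.009).

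Lower with cytokines and NMMA were *Lyz2* (2.499-fold, adjusted p = 0.00435) and *Trem2*, a lipid receptor (1.87-fold, adjusted p = 0.0375), the 2 identity genes called lower of 22, while 3 were called higher. The 22 lysosomal genes were likewise split, with 2 called higher and 2 lower. Of the lysosomal genes *Lipa*, the acid lipase, was at 712 and 686 CPM untreated, 602 and 564 with cytokines, 318 and 254 with cytokines and NMMA, and 622 and 557 with NMMA alone (2.45-fold lower than untreated, adjusted p = 0.00457), and *Ctsd*, or cathepsin D, was 2.10-fold lower (adjusted p = 0.0285). *Lipa* therefore stood at its lowest in the libraries with cytokines and NMMA, and its difference from cytokines alone passed with the block (adjusted p = 0.00916, against 0.159). *Hpgds*, a prostaglandin synthase of resident macrophages, and *Selenop*, a selenium carrier, were 2.48- and 1.93-fold lower (adjusted p = 0.0133 and 0.045), with the call for *Selenop* lost in each of the 8 fits without 1 library. Leaving out untreated replicate 1 or 2 gave 168 or 186 genes called in this comparison. The dendritic-cell and mesenchymal markers, at most 6.01 and 1.59 CPM untreated and 48.1 to 82.2 and 107 to 349 CPM with cytokines and NMMA, moved with it, and without the 34 members with markers of another type 287 genes were called.

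For NMMA without cytokines no gene passed the threshold. Of 5178 genes 0 were called (0.0%; edgeR), 128 had an unadjusted p under 0.05, DESeq2 called 0 and the fit with the block 1 (0.0193%). None of the 23 lists held a called gene. *Irf1*, *Cd274* and *Il1rn* had log2 differences of -0.61 ± 0.37, 0.69 ± 0.38 and 0.89 ± 0.36. In simulated libraries of this size 70% of genes changed 4-fold and 12% of genes changed 2-fold were recovered in the comparison of cytokines with untreated, and NMMA alone was not simulated. The B-cell markers, at 493 CPM in replicate 1 with NMMA alone and 9.54 to 12.02 CPM untreated, moved with 1 library of this comparison.

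Single barcodes showed how evenly the response was spread. The UMIs of the 16 GTPases were summed per barcode and expressed per 10000 UMIs. Since 12 of them passed the low-count filter through the treated libraries, a gap between conditions was largely set in advance. The medians were 0.333 and 0.828 in the untreated libraries, 50.2 and 42.9 with cytokines, 63.1 and 59.5 with cytokines and NMMA and 0 and 1.14 with NMMA alone. The highest untreated barcode reached 21.5. Only 2 of 30 and 8 of 33 macrophages with cytokines and 1 of 27 and 0 of 40 with cytokines and NMMA lay within the range of untreated barcodes, and of the 10 with cytokines 6 had at most 10000 UMIs and 4 had more, over a range of 1173 to 26481 UMIs. At the other end 1 macrophage with NMMA alone reached 67.9, inside the range of cytokine-treated barcodes.

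*Cxcl9* was less even. It had a UMI in 19 of 30 and 17 of 33 macrophages with cytokines and in 24 of 27 and 32 of 40 with cytokines and NMMA. Thinned to 1000 UMIs per barcode the shares were 36.7 and 42.4% with cytokines (exact intervals 19.9 to 56.1% and 25.5 to 60.8%) and 74.1 and 47.5% with cytokines and NMMA (53.7 to 88.9% and 31.5 to 63.9%), against 4.43 to 8.32% of β-led barcodes in the same 4 libraries. All 27 cytokine-treated macrophages without a *Cxcl9* UMI held GTPase UMIs, and 20 of them lay above the untreated range. Their median depth was 5838 UMIs, against 16189 in the 36 with a *Cxcl9* UMI, so depth moved with this split. *Nos2* had a UMI in 5 of 30 and 3 of 33 macrophages with cytokines and in 16 of 27 and 23 of 40 with cytokines and NMMA. Thinned to 1000 UMIs, the share with a UMI was 6.67 and 0% with cytokines and 14.8 and 12.5% with cytokines and NMMA, against 12.4 and 11.4% and 26.1 and 28.0% of β-led barcodes at the same depth, and the 0% allows a share with a UMI at that depth of up to 10.6% (exact interval). Classical class II genes and *Cd74* had medians of 91.1 and 112 per 10000 UMIs untreated, 111 and 119 with cytokines and 174 and 185 with cytokines and NMMA, with ranges that overlapped almost fully, and the *Lyz2* medians were 33.2 and 27.9, 9.54 and 7.17, and 7.43 and 11.8.

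**Figure D3:**
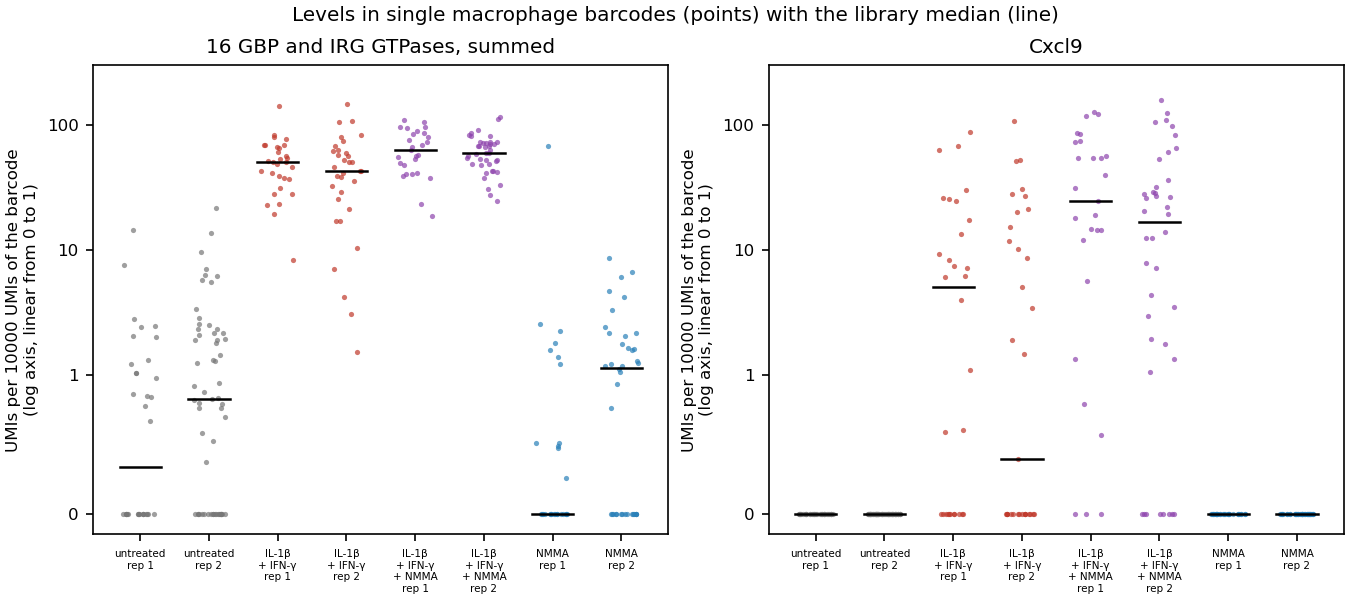
UMIs per 10000 in each macrophage barcode (points) for the sum of 16 GBP and IRG GTPases (left) and for *Cxcl9* (right), by library, on a log axis that is linear from 0 to 1, with a line at the library median. GTPase medians lie between 42.9 and 63.1 in the 4 cytokine libraries and at or below 1.14 in the other 4, while *Cxcl9* is at 0 in 11 of 30 and 16 of 33 barcodes with cytokines.

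Some abundant or stress-related transcripts also came from few barcodes. *Hspa1a*, the inducible heat shock protein 70, had 236 UMIs in replicate 1 with cytokines, 234 of them in 1 barcode, and was too sparse elsewhere to be tested. *Pf4*, a platelet factor also made by resident macrophages, was at 415 and 1094 CPM untreated, 36.5 and 1595 with cytokines, 34.7 and 80.4 with cytokines and NMMA, and 1018 and 2522 with NMMA alone, with 314 of the 529 UMIs of replicate 2 with cytokines in 1 barcode, and did not pass in any comparison. *Arg1*, arginase 1, was at 0 and 4.77 CPM untreated, 0 and 75.4 with cytokines, 66.7 and 247 with cytokines and NMMA, and 22.9 and 39.8 with NMMA alone, and in replicate 2 with cytokines 96.0% of its UMIs came from 1 barcode. Single barcodes thus held most UMIs of these genes in the libraries named for them, which was not shown for the other libraries, and the folds are not interpreted.

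Whether macrophages responded differently from other islet cells was tested as an interaction, the cytokine response in macrophages minus that in another class of the same libraries, with the library as a block. Against endothelial cells (287 barcodes with at least 4 of 7 endothelial markers), 108 of 7819 genes differed (1.38%), 20 with a larger and 88 with a smaller log2 response in macrophages. The endothelial barcodes numbered 47 and 51 untreated and only 16 and 23 with cytokines, so their response rests on few barcodes. *Psmb8* went from a mean of 556 to 1271 CPM in macrophages and from 87.7 to 1512 CPM in endothelial cells, a difference in response of -2.92 ± 0.31 (log2, SE; adjusted p = 2.05e-07, edgeR). *H2-Q7*, a non-classical class I molecule, went from 453 to 866 and from 103 to 1424 CPM (difference -2.83 ± 0.32, adjusted p = 6.50e-07), and *Bst2* from 1462 to 2367 and from 149 to 1569 CPM (difference -2.67 ± 0.31, adjusted p = 8.37e-07). In these 3 genes the macrophages started higher and both classes reached levels of the same order. *Igtp* (difference -4.97 ± 0.66, adjusted p = 9.50e-06) and *Pfkfb3*, a regulator of glycolysis (difference -4.44 ± 0.45, adjusted p = 1.08e-07), ended higher in endothelial cells, at 1348 against 307 CPM and 732 against 106 CPM. *Cxcl10* averaged 1278 CPM in macrophages and 13466 CPM in endothelial cells with cytokines (difference -7.88 ± 1.09, adjusted p = 0.00793). *Igtp* and *Cxcl10* had few UMIs in untreated endothelial barcodes, so the size of their differences depends on the prior count.

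Against β-led barcodes 474 of 12797 genes differed (3.7%), 173 with a larger and 301 with a smaller response in macrophages. The split depended on the processing, with 82 larger and 400 smaller without the low-count filter (20361 genes). Scaling by total UMIs gave 129 larger and 340 smaller. *Ddit3* went from 72.7 to 94.2 CPM in macrophages and from 92.9 to 581 CPM in β-led barcodes (difference -2.04 ± 0.37, adjusted p = 6.80e-06), and *Hmox1* from 1702 to 2046 and from 42.1 to 377 CPM (difference -2.41 ± 0.31, adjusted p = 6.66e-12). Both stress genes had higher means with cytokines in β-led barcodes and were not called in macrophages, and the test of the difference passed. In macrophages, however, *Ddit3* rose in replicate 1 and fell in replicate 2, and *Hmox1* did the reverse. The test takes part of its estimate of spread from other genes. Very small adjusted p-values in these class differences therefore do not measure the spread of a single gene between replicates. *Hspa8*, a constitutive heat shock protein, averaged 1043 and 1474 CPM in macrophages and 635 and 2733 CPM in β-led barcodes (difference -1.28 ± 0.31, adjusted p = 0.00191). *Fos*, an immediate early gene, went from 37.2 to 5.48 CPM in β-led barcodes and from 166 to 169 CPM in macrophages (difference 3.01 ± 0.34, adjusted p = 8.10e-16). *Irf8* was near 0 in untreated β-led barcodes (0.148 CPM) and reached 18.5 CPM with cytokines, against 329 and 959.6 CPM in macrophages. Where a gene had hardly any UMI in an untreated class, the fitted difference depends on the prior count and is no measure of size. *Neurl3*, a ubiquitin ligase, was 139 CPM untreated and 67.0 CPM with cytokines in macrophages, while it went from 0.146 to 37.8 CPM in β-led barcodes and from 33.3 to 642 CPM in endothelial cells, and both differences passed (adjusted p = 3.30e-67 and 7.27e-09). Leaving out 1 library gave 216 to 649 calls against β-led barcodes and 45 to 164 against endothelial cells.

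**Figure D4:**
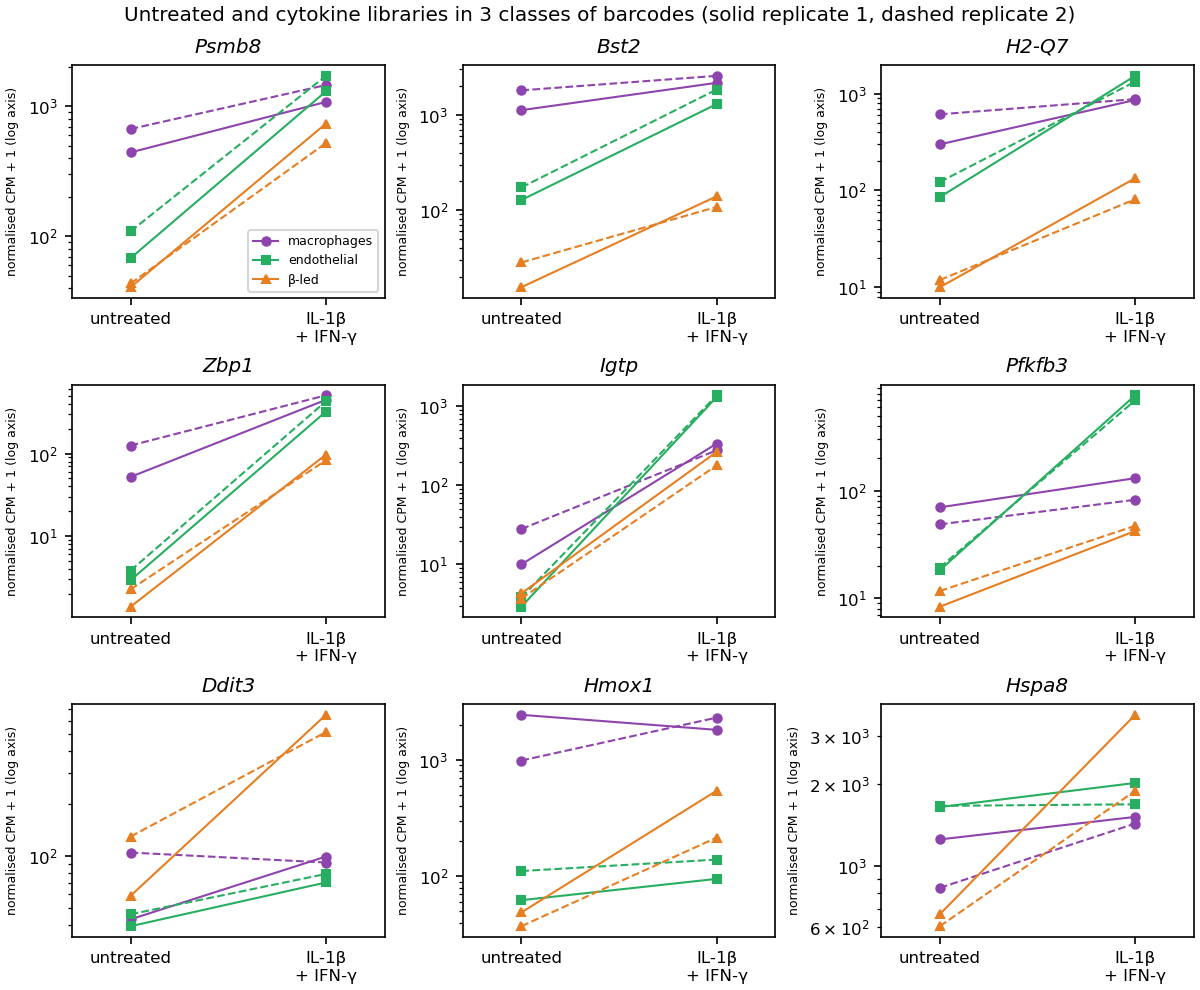
Normalised CPM plus 1 (y axis, log scale) of 9 genes in untreated and cytokine-treated libraries (x axis) for macrophages, endothelial and β-led barcodes, with solid lines for replicate 1 and dashed lines for replicate 2. For *Psmb8*, *Bst2*, *H2-Q7* and *Zbp1* macrophages start higher than endothelial cells and end near them, and for *Ddit3* and *Hmox1* the line rises steeply in β-led barcodes. In macrophages *Ddit3* rises in replicate 1 and falls in replicate 2, and *Hmox1* falls in replicate 1 and rises in replicate 2.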

How the data were processed

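Islets of mice were dispersed after culture and captured in droplets with a 3′ single-cell kit (v3 in the study's methods, v2 per the labels). The authors deposited raw UMI counts per gene and barcode for 8 libraries, made with Cell Ranger (3.0.0 for replicate 1 and 6.0.0 for replicate 2, per the file headers) on mm10, with replicates not pooled. The 30406 gene IDs in both replicates were used. The version differs between replicates alike in each condition.

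Barcodes were kept with 200 to 5500 genes (replicate 1) or 200 to 6500 (replicate 2) and at most 10% mitochondrial UMIs, which left 10876 of 17426, and with at least 1000 UMIs, which left 8994. Members were chosen as the report states. The members and gene lists were chosen with earlier results of these data known. No member barcode sequence occurred in another library. Scrublet (scanpy 1.11.5, Python 3.11.15) called 99 of 10876 barcodes (0.910%) doublets, 1 of them a member, and none was removed in the main result. Member UMIs were summed per library and tested with edgeR 4.0.16 under R 4.3.3 (filterByExpr for low counts, scaling by TMM, the robust quasi-likelihood test, all conditions in 1 fit with 4 residual degrees of freedom). The SE is the log2 difference over the square root of F. Differences between classes were tested on library sums of both classes with the library as a block. Genes named are up to 4 called members of each list per direction with up to 2 that did not pass, fixed genes of the pathway, the 10 largest called changes per direction with at least 50 CPM in each library of the higher group, and for class differences the 10 smallest adjusted p; not all of these are printed. *Cx3cr1*, *Sparc* and *Ccr7* were added after their values were seen. A floor of 3 UMIs over a group bounds folds against 0, and shares have exact Clopper-Pearson 95% intervals, both for counting error only. The free RNA expected in members is the insulin ratio to β-led barcodes times the β-led level.

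The pools of a replicate were split over the conditions, per the study's methods, so replicates pair the libraries. Deviations from the condition means correlated across genes between libraries of the same replicate with r of 0.337 to 0.409 in 6 pairs of conditions. Alternatives were the replicate block, DESeq2 1.42.0, scaling by total UMIs or RLE, no low-count filter, other limits on markers, hormones and UMIs, removal of doublets or of members with other markers, and leaving out each library. On simulated sums of macrophages and endothelial cells the interaction test recovered 20% of 4-fold and 2% of 2-fold changes (7819 genes). Some genes of the lists are not reported here by name.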

Additional observations from a re-analysis of the deposited data

Results flagged for a closer look

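The cytokine response of macrophages differed from that of β-led barcodes in 474 genes and from that of endothelial barcodes in 108 genes, by a test of the difference itself (interaction term, edgeR, adjusted p under 0.05). Values below are the log2 response in macrophages minus that in the other class, with mean CPM untreated and with cytokines in macrophages and then in the other class. No explanation was tested.

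Against β-led barcodes, many genes with a smaller response in macrophages were under 2 CPM in untreated β-led barcodes. For those nearest 0, such as *Nos2* and *Mpeg1* at 0.014 CPM, the size of the fitted difference depends on the prior count. Genes under 2 CPM included *Nos2* -9.55 (2.30 to 17.1 CPM against 0.014 to 180.1 CPM), *Neurl3* -8.86 (139 to 67.0 CPM against 0.146 to 37.8 CPM), *Mpeg1* -7.70 (798 to 908 CPM against 0.014 to 8.23 CPM), *9930111J21Rik2* -7.44 (21.0 to 90.3 CPM against 0.0279 to 44.3 CPM), *Irf8* -5.43 (329 to 959.6 CPM against 0.148 to 18.5 CPM). They also included *Tnfaip2* -5.32 (124 to 303 CPM against 0.142 to 21.7 CPM), *Lgals9* -4.49 (107 to 103 CPM against 0.893 to 21.4 CPM), *Cd74* -4.23 (6267 to 7833 CPM against 1.89 to 59.2 CPM), *Zbp1* -4.10 (87.6 to 477 CPM against 0.826 to 88.9 CPM), *H2-Ab1* -2.16 (2109 to 3602 CPM against 0.581 to 5.42 CPM), besides *Gbp2* and *Cxcl10* given below. *Cd74* and *H2-Ab1* were not at the floor, with a UMI in 47 and 26 and in 15 and 11 untreated β-led barcodes of the replicates. Further genes with a smaller response were *Litaf* -3.48 (201 to 283 CPM against 8.17 to 154 CPM), *Gbp2* -2.84 (23.3 to 1539.6 CPM against 1.93 to 1089 CPM), *Hmox1* -2.41 (1702 to 2046 CPM against 42.1 to 377 CPM), *Ddit3* -2.04 (72.7 to 94.2 CPM against 92.9 to 581 CPM). The chemokine and cytokine genes were *Cxcl10* -1.44 (40.4 to 1278 CPM against 1.96 to 205 CPM) and *Il1b* -1.43 (30.6 to 72.3 CPM against 7.75 to 55.4 CPM), with calls in 6 and 5 of the 8 fits that each left out 1 library. The *Cxcl10* difference turned to 1.56 (adjusted p = 0.718) without untreated replicate 2 and was -2.82 to -1.20 in the other 7 fits. A larger response in macrophages was fitted for *Arg1* 6.40 (2.39 to 37.7 CPM against 10.7 to 1.24 CPM), *mt-Nd3* 3.18 (198 to 321 CPM against 834 to 182 CPM), *Fos* 3.01 (166 to 169 CPM against 37.2 to 5.48 CPM), and the *Arg1* level with cytokines in macrophages came almost wholly from 1 barcode. Without cytokines replicate 2 the *Arg1* difference turned to -4.35 and was not called.

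Against endothelial barcodes the response was smaller in macrophages for the class I and proteasome genes *Psmb8* -2.92 (556 to 1271 CPM against 87.7 to 1512 CPM), *H2-Q7* -2.83 (453 to 866 CPM against 103 to 1424 CPM), *H2-T22* -2.83 (144 to 311 CPM against 57.6 to 897 CPM). It was also smaller for the interferon-induced genes *Igtp* -4.97 (18.0 to 307 CPM against 2.37 to 1348 CPM), *Bst2* -2.67 (1462 to 2367 CPM against 149 to 1569 CPM), *Zbp1* -4.73 (87.6 to 477 CPM against 2.37 to 375 CPM), *Cxcl10* -7.88 (40.4 to 1278 CPM against 1.92 to 13466 CPM). Further genes were *Wars* -3.58 (32.3 to 63.5 CPM against 30.6 to 718 CPM), *Pfkfb3* -4.44 (58.4 to 106 CPM against 17.8 to 732 CPM), *Neurl3* -5.22 (139 to 67.0 CPM against 33.3 to 642 CPM), *AA467197* -4.66 (449 to 1617 CPM against 4.99 to 492 CPM). Each of these 11 genes had a higher mean level in macrophages than in endothelial barcodes before cytokines. The untreated endothelial libraries summed to only 498571 and 686859 UMIs. *Igtp*, *Zbp1*, *Cxcl10* and *AA467197*, at 1.92 to 4.99 CPM there, thus rest on few UMIs, and the size of their fitted differences depends on the prior count.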

How the results depend on the processing

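Calls per comparison are given in the order cytokines against untreated (225), cytokines against cytokines with NMMA (11), cytokines with NMMA against untreated (318) and NMMA against untreated (0). The replicate block, which the pairing by pool allows, gave 412, 66, 558 and 1, and lowered the share of higher genes from 80.4 to 69.9% in the first comparison and from 79.9 to 69.7% in the third. DESeq2 called 145, 8, 193 and 0, with 91.2% higher in the third. Without the low-count filter 357, 84, 530 and 10 genes were called. Leaving out 1 library gave 102 to 230, 6 to 27, 168 to 348 and 0 to 3, with the lowest counts without an untreated library and the 27 without replicate 2 of cytokines with NMMA. The interactions gave 216 to 649 calls (β-led) and 45 to 164 (endothelial). For cytokines against cytokines with NMMA, 3 or more markers gave 5 calls, removal of members with markers of another type 5 (and 1 for NMMA alone, with 255 of 289 members), and genes without a barcode over 50% of the UMIs 6, chosen after the data were seen. The causes of these shifts were not tested. Of 204 calls of named genes, the 10 leading differences from each other class included, 63 and 52 were lost without untreated replicate 2 and 1, at most 30 without another library, 31 of 182 with DESeq2, and 1 of 184 with the block, and none reversed in any of these settings. Of the other named class differences, *Cxcl10* (1.56) and *Gbp4* (4.11) turned without untreated replicate 2 and *Arg1* (-4.35) without cytokines replicate 2, all against β-led barcodes. With 27 to 59 members per library, simulated 2-fold changes were mostly missed, so genes without a call may still differ.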

Other observations

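*Ccr7*, the chemokine receptor of migrating dendritic cells, named after its values were seen, had 16 and 21 UMIs in the libraries with cytokines and NMMA (42.7 and 38.4 CPM), all from 1 barcode in each. It had 10 UMIs in 1 barcode of replicate 1 with NMMA alone, 4 UMIs in replicate 2 with NMMA alone, 1 UMI with cytokines and none untreated. In replicate 1 with NMMA alone the summed monocyte markers reached 201 CPM, against at most 36.2 CPM in the other libraries.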
